A study of Drosophila melanogaster with 21 samples.

Results

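The transcriptome of Drosophila S2 cells was measured after RNA interference against a single protein isoform of the cofactor U-shaped (Ush), called Ush-B, and compared with cells that received a control double-stranded RNA (dsRNA) in the same experiment. The members of this comparison were the 4 libraries of cells transfected with dsRNA against Ush-B (dsUsh-B) and the 4 libraries of cells transfected with dsRNA against EGFP (dsEGFP), the control sequence. These 8 libraries were normalised together in a table of their own and were chosen by the column names of that table, out of 21 samples of the series. All cells were S2 cells, a line derived from embryonic hemocytes, the blood cells of the fly. Per the methods of the study, dsRNA was added to S2 cells that stably express the Cas9 nuclease, so that both groups shared this background, and RNA was isolated after 4 days. The methods name independent transfections without saying how the fourth library of a group was obtained, so the p-values below measure the spread between these libraries. The other RNA libraries of the series, with 3 each for depletion of all Ush isoforms (dsUsh), depletion of the chromatin remodeler dMi-2 (dsMi-2) and their dsEGFP control, were normalised in another table and served only for values set side by side.

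Ush is the fly member of the FOG (Friend of GATA) family, zinc finger proteins that do not read DNA by themselves but bind GATA transcription factors and switch them between activation and repression. In the fly, Ush acts with the GATA factor Serpent in the development of blood cells, and with Pannier in heart and bristle patterning. The isoforms of Ush differ in a short stretch at their N-terminus. In Ush-B this stretch holds a FOG repression motif, a peptide that in mammalian FOG1 contacts the nucleosome remodeling and deacetylation complex (NuRD), which couples the ATPase Mi-2 to histone deacetylase activity. The question asked by this comparison was which transcripts depend on the isoform that can contact NuRD.

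Each library held between 46181614 and 59387417 reads on genes, with a median of 50136949 in the dsEGFP and 49459868 in the dsUsh-B libraries. Values are normalised counts, that is reads per gene divided by a scaling factor of the library, with all transcripts of a gene added up. Of the 17737 genes listed, 14297 had a read in any of the 8 libraries and 9648 had a mean normalised count of at least 5, the minimum for testing. The hemocyte label was checked against 8 markers, of which 7 could be tested. Their sum was between 8409.5 and 9254.5 normalised counts in dsUsh-B and between 10807.1 and 16760.1 in dsEGFP libraries, with 1 marker higher and 6 lower in the mean. The markers include the collagen genes Col4a1 and vkg, described among the lower genes, and without this pair the sum was between 7872.0 and 8577.4 in dsUsh-B and between 8741.8 and 11169.1 in dsEGFP libraries. All 6 markers of the fat body and all 6 of the gut stayed under the minimum for testing, and their sums did not exceed 15.5 normalised counts in any library. Markers of other tissues were not all absent. Of 6 markers each, 5 of neurons, 6 of the germline and 5 of muscle could be tested. In dsEGFP libraries their sums were 3625.6 to 6068.7, 4381.7 to 5433.6 and 113.0 to 255.5 normalised counts. In dsUsh-B libraries they were 4363.5 to 6565.0, 4174.4 to 5006.9 and 173.2 to 221.0. The first principal component held 41.8% of the variance and put replicates 1 and 2 of both groups below 0 and 3 of the 4 libraries of replicates 3 and 4 above 0, while dsEGFP replicate 3 lay at -3.9 and apart from all others on the second component (52.4).

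The transcript of ush itself was not lower in dsUsh-B cells by more than the spread between libraries. It had 9699.6, 10368.9, 9579.9 and 6410.9 normalised counts in dsEGFP replicates 1 to 4, and 9992.7, 9283.8, 6463.9 and 7660.6 in dsUsh-B replicates 1 to 4. The groups overlapped, with a log2 fold change of -0.11 (standard error, SE, 0.18, limma adjusted p = 0.927). Counts per gene add up all ush transcripts, so this value does not test whether the Ush-B transcript was depleted. At the protein level, the study reports from a Western blot that dsRNA against Ush-B efficiently removed the slower migrating Ush protein, in cells with tagged dMi-2. The subunits of NuRD and of dMec, another complex built on dMi-2, were examined next. Of the 8 genes, 3 were higher and 5 lower in the mean, between -0.15 for MBD-like, the methyl-CpG-binding domain subunit, and 0.13 for HDAC1, the histone deacetylase, on the log2 scale. None passed the test, and the 4 dsUsh-B values overlapped the dsEGFP values for each of the 8. Among GATA factors and their partners, pannier (pnr) lay between 9046.4 and 9646.5 normalised counts in dsUsh-B and between 8038.1 and 8503.3 in dsEGFP libraries, a log2 difference of 0.16 (unadjusted p = 0.0274 and limma adjusted p = 0.642). The values of serpent (srp) overlapped (-0.23, limma adjusted p = 0.7).

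A single gene passed the threshold of the main test, limma on log2-transformed normalised counts (1 added to each), at an adjusted p under 0.05 over all genes tested. This gene, commissureless 2 (comm2), made up 0.0104% of the genes tested. Its relative commissureless sorts the axon guidance receptor Robo away from the cell surface in the fly embryo. comm2 had 46.8, 23.9, 19.6 and 36.9 normalised counts in dsEGFP replicates 1 to 4 and 215.4, 303.9, 179.6 and 230.4 in dsUsh-B replicates 1 to 4. The lowest dsUsh-B library thus lay well above the highest control library. comm2 rose 7.38-fold, a log2 fold change of 2.88 (SE 0.30, limma adjusted p = 0.0492, DESeq2 adjusted p = 3.55e-18). The size of the difference hardly moved when single libraries were left out (2.69 to 3.09), but the adjusted p passed the threshold only in the fit without dsEGFP replicate 1 and not in the 7 fits without another library. The neighbouring family members comm and comm3 were near the detection limit, with at most 7.39 and 6.34 normalised counts in any of the 8 libraries, and were not tested. In bulk RNA, a change in RNA per cell and a change in the share of cells that express a gene cannot be told apart.

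The count of genes past a threshold depended on the tool. edgeR's quasi-likelihood test on the recovered reads called 0 genes, with 673 at an unadjusted p under 0.05 (6.98%), and limma had 684 genes at an unadjusted p under 0.05 (7.09%). DESeq2 on the same reads called 90 genes at an adjusted p under 0.05, or 1.06% of the 8467 genes for which it gave an adjusted p, with 51 higher (0.602%) and 39 lower (0.461%) in dsUsh-B cells. The ranges of the groups did not overlap for 76 of the 90 genes (41 higher and 35 lower). Over all genes tested this was so for 4.02%, with 2.23% above and 1.79% below the controls, and both counts read the same 8 libraries that DESeq2 used. The number of DESeq2 calls was 294 without dsEGFP replicate 4 and 187 without dsUsh-B replicate 1, but 40 without dsEGFP replicate 2 or 3, 26 without dsUsh-B replicate 2 and 30 without dsUsh-B replicate 4. In the 8 fits that each omitted 1 library, 24 of the 90 genes (9 higher and 15 lower) passed throughout, and 54 were lost in at least 4. The differences were mostly moderate. Of the 51 higher genes 25 differed at least 2-fold, and of the 39 lower genes 12 did. Most of the genes described below were chosen from the 90 after their values were seen. CG3376 and AsnRS are not among the 90 and were also chosen after their values were seen. So were the lists of aminoacyl-tRNA synthetases, ribosomal proteins, basement membrane, tetraspanins, the Notch pathway and prefoldin. "Higher" and "lower" refer to the mean over libraries.

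**Figure D1:**
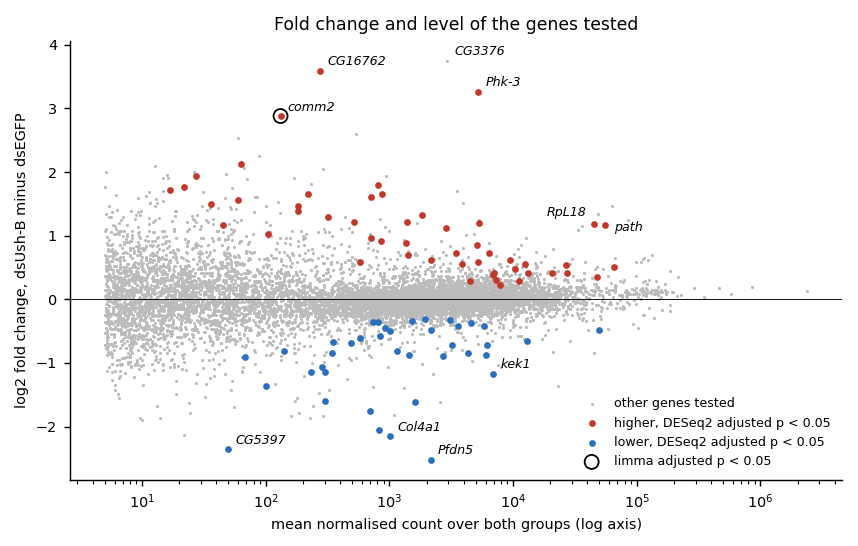
Log2 fold change of each gene tested (vertical axis, dsUsh-B minus dsEGFP) against its mean normalised count (horizontal axis, log scale). Red and blue points are the 51 higher and 39 lower genes by DESeq2, and the ring marks comm2, the only gene past the limma threshold.

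Among the 51 genes called higher by DESeq2, the widest fold differences were those of CG16762 and Phk-3. CG16762 was taken as a gene of the RT-qPCR panel of the study from its primer list, while the text of the study writes CG16267. CG16762 had 87.5, 33.8, 9.34 and 19.8 normalised counts in dsEGFP replicates 1 to 4 and 754.0, 1020.6, 183.2 and 95.9 in dsUsh-B replicates 1 to 4. All dsUsh-B values were above all dsEGFP values, yet the lowest dsUsh-B value was close to the highest control value, and both groups had more reads in replicates 1-2 than in replicates 3-4. The log2 fold change was 3.59 (SE 0.86, limma adjusted p = 0.429 and DESeq2 adjusted p = 0.0128), with 3.98 in replicates 1-2 and 3.19 in replicates 3-4. It overlaps Svil in the annotation. Phk-3, which encodes a pherokine, a small secreted protein, had 1289.7, 860.8, 262.4 and 997.9 normalised counts in dsEGFP and 2093.2, 17820.5, 4854.7 and 13493.2 in dsUsh-B replicates 1 to 4. The dsUsh-B values themselves spread widely, and dsUsh-B replicate 1 was the lowest (log2 fold change 3.26, SE 0.71, limma adjusted p = 0.374 and DESeq2 adjusted p = 0.00149). CG3376 had a log2 fold change of 3.75 and also no overlap between groups, but 1 control library stood apart: dsEGFP replicate 1 had 2136.6 normalised counts where the other 3 had 153.1 to 267.5. Its adjusted p was 0.313 in limma and 0.0802 in DESeq2. Without dsEGFP replicate 1 it passed the limma threshold (log2 fold change 4.59, adjusted p = 0.00161).

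**Figure D2:**
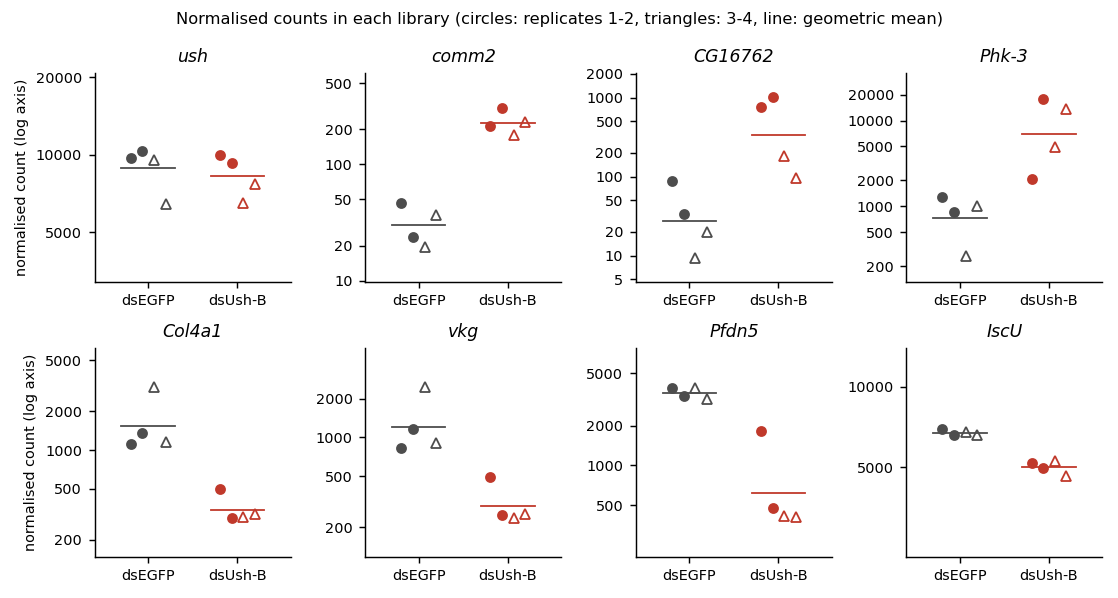
Normalised counts of 8 genes in each of the 8 libraries, on log axes. Circles are replicates 1 and 2, triangles replicates 3 and 4, and lines geometric means; the groups overlap for ush and are apart for the other 7 genes.

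Among the higher genes with a role in immunity or the lysosome were pirk and GILT3. pirk, an inhibitor of the IMD pathway that reports bacteria to the fly's NF-kB factor Relish, had 21.4, 18.9, 9.34 and 27.0 normalised counts in dsEGFP and 58.1, 51.0, 46.4 and 54.5 in dsUsh-B replicates 1 to 4. The 4 dsUsh-B values were close to each other and above every control value (log2 fold change 1.49, SE 0.32, DESeq2 adjusted p = 0.00498 and limma adjusted p = 0.374). GILT3, a lysosomal thiol reductase, had 80.4, 64.7, 82.2 and 144.1 normalised counts in dsEGFP and 103.5, 292.2, 358.0 and 331.9 in dsUsh-B libraries. Here dsUsh-B replicate 1 fell within the control range while the other 3 were above it (log2 fold change 1.46, DESeq2 adjusted p = 0.0142 and limma adjusted p = 0.528). CG16762, pirk and GILT3 are 3 of the 15 genes of the study's RT-qPCR panel. Of the other 12, lz and atilla were under the minimum for testing, and the 10 tested had log2 fold changes between -0.23 and 0.35 with no DESeq2 call, which gave no adjusted p for fa2h. The study chose this panel itself, to represent gene classes that changed on depletion of all Ush isoforms, so its direction here is no independent evidence. By RT-qPCR after Ush-B depletion, the study reports higher levels for most of the hemocyte-related genes of the panel.

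Other higher genes encode proteins of lipid handling and detoxification. Pmp70, a peroxisomal ABC transporter of fatty acyl-CoA, had 3620.9 to 4446.6 normalised counts in dsEGFP (median 4306.5) and 5604.6 to 6920.5 in dsUsh-B libraries (median 6228.5), without overlap. It had a log2 fold change of 0.58 (SE 0.10, DESeq2 adjusted p = 0.000261 and limma adjusted p = 0.301) and passed DESeq2 without each library in turn. The cytochrome P450 gene Cyp310a1 had 2125.4, 1367.4, 1333.3 and 2534.5 normalised counts in dsEGFP and 3299.2, 3809.0, 4819.0 and 3605.1 in dsUsh-B replicates 1 to 4, with no overlap (log2 fold change 1.12, DESeq2 adjusted p = 0.00155). Cyt-b5-r, a cytochrome b5-related protein, and Ugt36Bc, a UDP-glycosyltransferase, were weakly expressed. Cyt-b5-r reached at most 9.01 normalised counts in dsEGFP and 42.8 in dsUsh-B libraries (log2 fold change 1.72), and Ugt36Bc at most 36.0 and 151.4 (1.56). Both were without overlap, and both lost the DESeq2 call in 5 of the 8 fits that left out a library.

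Signalling genes among the higher calls ranged from broadly expressed to scarce. Rac1, a GTPase of the actin cytoskeleton and of phagocytosis, had 9493.0, 6520.5, 6358.6 and 7685.4 normalised counts in dsEGFP and 10746.7, 10735.8, 12007.2 and 11830.8 in dsUsh-B replicates 1 to 4, a log2 fold change of 0.61 without overlap (DESeq2 adjusted p = 0.0142). IP3K1, which phosphorylates inositol trisphosphate, had 392.2 to 512.5 normalised counts in dsEGFP and 672.0 to 752.0 in dsUsh-B libraries, with a log2 fold change of 0.59 in the mean, 0.59 in replicates 1-2 and 0.60 in replicates 3-4. The Fos gene kayak (kay), which holds part of the AP-1 factor, and 14-3-3epsilon, an adaptor of phosphorylated proteins, were far more abundant, with at least 40930.2 and 49061.0 normalised counts in every library, and differed by 0.35 and 0.50 on the log2 scale. p38c, a stress-activated kinase, the Wnt antagonist naked cuticle (nkd) and the secreted neurexin-family gene axotactin (axo) had log2 fold changes of 1.32, 1.65 and 1.61. Of these 3, nkd had overlapping groups, and only axo kept its DESeq2 call without each library in turn. Its log2 fold change was 0.83 in replicates 1-2 and 2.40 in replicates 3-4.

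Several higher genes act in the supply of amino acids or in protein synthesis. The amino acid transporter pathetic (path) had 26781.1, 36086.6, 23239.2 and 48581.8 normalised counts in dsEGFP and 41007.7, 104671.7, 63638.3 and 99829.3 in dsUsh-B replicates 1 to 4, a log2 fold change of 1.16 (DESeq2 adjusted p = 0.0235 and limma adjusted p = 0.528). Its groups overlapped, since dsUsh-B replicate 1 was below dsEGFP replicate 4. CD98hc, the heavy chain of an amino acid exchanger, AsnS, asparagine synthetase, and the initiation factor gene eIF3d1 had log2 fold changes of 0.56, 0.55 and 0.41, all without overlap. Among the 51 genes were 3 aminoacyl-tRNA synthetases, the enzymes that load tRNAs: CysRS (0.38), TyrRS (0.42) and ThrRS (0.54). A list of all 20 cytosolic synthetases in the table, drawn up after these values were seen and therefore not tested as a list, had 19 genes higher and 1 lower, and the median of their log2 fold changes was 0.28 (0.23 to 0.34 on omission of single libraries). Over all genes tested the median was -0.0005. The 4 dsUsh-B libraries were above the 4 dsEGFP libraries for 9 of the 20, beside the 2.23% of all genes given above. The 20 include the 3 called genes, whose values were seen first, so this count is no independent evidence. AsnRS had the widest difference, with 12611.8, 14905.9, 12759.2 and 14089.1 normalised counts in dsEGFP and 15975.4, 29990.6, 16945.2 and 27302.4 in dsUsh-B replicates 1 to 4 (log2 fold change 0.68, DESeq2 adjusted p = 0.0682 and limma adjusted p = 0.57). In AsnRS, MetRS, ThrRS and path alike, dsUsh-B replicates 2 and 4 were the highest libraries. RpL18, a protein of the large ribosomal subunit, had 19182.2 to 41373.7 normalised counts in dsEGFP and 58950.5 to 66342.8 in dsUsh-B libraries (log2 fold change 1.19, DESeq2 adjusted p = 0.000325 and limma adjusted p = 0.301). It stood out from the 84 cytosolic ribosomal protein genes tested, whose median was 0.11, and it overlaps BHD in the annotation. Of the 84 genes 81 were higher and 3 lower. Their median was 0.01 with quantile normalisation and 0.03 to 0.24 on omission of single libraries.

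Among the lower genes, both chains of type IV collagen, the main collagen of basement membranes and a product of plasmatocytes, had wide differences. Col4a1 had 1110.5, 1365.4, 3103.7 and 1158.3 normalised counts in dsEGFP and 496.4, 296.1, 303.3 and 315.9 in dsUsh-B replicates 1 to 4. Every dsUsh-B library was below every control library, dsEGFP replicate 3 was the highest control, and dsUsh-B replicate 1 the least lowered. The log2 fold change of Col4a1 was -2.15 (SE 0.33, DESeq2 adjusted p = 1.37e-07 and limma adjusted p = 0.301). Its neighbour viking (vkg), transcribed from the same intergenic region in the opposite direction, had 834.7, 1156.4, 2487.4 and 907.0 normalised counts in dsEGFP and 495.3, 247.1, 234.3 and 251.1 in dsUsh-B libraries. In both groups the highest library was the same as for Col4a1, and the log2 fold change of vkg was -2.06 (SE 0.37, DESeq2 adjusted p = 3.45e-05 and limma adjusted p = 0.301). Both collagen genes passed DESeq2 without each library in turn. The other genes of the basement membrane were not called. Of 11 such genes in a list drawn up after values were seen, 10 were lower and 1 higher (0.75), with a median of -0.45. The dsUsh-B libraries were below all dsEGFP libraries for 3 of the 11, Col4a1 and vkg among them, beside 1.79% of all genes. The laminin genes LanA, LanB1 and LanB2 had overlapping groups and log2 fold changes of -0.39, -0.14 and -0.84.

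Several lower genes encode membrane proteins. The tetraspanin gene Tsp42Ed had 880.5, 617.0, 2052.3 and 824.1 normalised counts in dsEGFP and 372.8, 140.2, 366.3 and 365.8 in dsUsh-B replicates 1 to 4, without overlap (log2 fold change -1.76, SE 0.42, DESeq2 adjusted p = 0.00195 and limma adjusted p = 0.429). As for the collagens, dsEGFP replicate 3 was the highest control. The adjacent Tsp42Ee is far more abundant, between 51275.7 and 70250.6 normalised counts in dsEGFP and between 35685.0 and 45026.1 in dsUsh-B libraries (-0.49, DESeq2 adjusted p = 0.0276). Of the 9 tetraspanin genes of this cluster that could be tested, 7 were lower and 2 higher. The Notch receptor gene (N) had 4123.5, 3470.2, 3355.8 and 2942.5 normalised counts in dsEGFP and 2820.8, 1618.7, 1825.6 and 1426.4 in dsUsh-B replicates 1 to 4, a log2 fold change of -0.89 (SE 0.20, DESeq2 adjusted p = 0.0199 and limma adjusted p = 0.398). The highest dsUsh-B value was just below the lowest control value. The other 10 tested genes of a Notch pathway list had no DESeq2 call. kekkon 1 (kek1), an inhibitor of the EGF receptor, had 7504.0, 9248.3, 14168.1 and 7516.0 normalised counts in dsEGFP and 5087.2, 3331.5, 3333.6 and 5085.1 in dsUsh-B libraries (-1.17, DESeq2 adjusted p = 0.000818). The flippase gene ATP8B, the serpin gene Spn28Dc and the adaptor gene Traf4 had log2 fold changes of -1.61, -1.14 and -0.87, all without overlap.

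Pfdn5, a subunit of the prefoldin chaperone that hands actin and tubulin to the folding machinery, had the widest fold difference of all lower calls. It had 3826.3, 3339.9, 3862.8 and 3177.5 normalised counts in dsEGFP and 1812.2, 476.5, 416.3 and 405.3 in dsUsh-B replicates 1 to 4. The controls were close together, 3 dsUsh-B libraries were also close together, and dsUsh-B replicate 1 lay between them (log2 fold change -2.52, SE 0.43, DESeq2 adjusted p = 0.0142 and limma adjusted p = 0.301). Without dsUsh-B replicate 1, Pfdn5 was the only gene past the limma threshold (-3.03, adjusted p = 3.15e-05). The genes of the other 5 prefoldin subunits had log2 fold changes between -0.01 and 0.13 and overlapping groups. Pfdn5 overlaps CG5376 in the annotation, and whether reads were counted by strand is not given in the sources used here.

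Smaller differences with a narrow spread were found for genes of the mitochondrion and of genome maintenance. IscU, the scaffold on which iron-sulfur clusters are built, had 6979.8, 6607.1, 6752.6 and 6587.5 normalised counts in dsEGFP and 5209.7, 4990.4, 5284.1 and 4623.4 in dsUsh-B replicates 1 to 4. The difference was 1.34-fold, and the libraries of each group lay within a narrow band (log2 fold change -0.42, SE 0.07, DESeq2 adjusted p = 7e-05 and limma adjusted p = 0.301). mre11 and Lig4, which act in the repair of DNA double-strand breaks, and verrocchio (ver), a protein of the telomere cap, had log2 fold changes of -0.38, -0.36 and -0.50. Bin1, known as a partner of the Sin3 histone deacetylase complex, had -0.49. The groups did not overlap for any of these 5 genes, and IscU, ver and Bin1 passed DESeq2 without each library in turn. The DEAD-box helicase gene mahe (-0.87) also passed in all of them, as did CG5397, which had 128.3, 51.7, 102.7 and 54.9 normalised counts in dsEGFP and 27.5, 12.7, 10.7 and 11.3 in dsUsh-B replicates 1 to 4. CG5397 had no overlap and the second widest fold difference among the lower genes (-2.36, SE 0.41, DESeq2 adjusted p = 7.89e-05).

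Of the gene lists drawn up for the hemocyte, cell cycle and metabolic functions of the cells, none held a gene past the limma or edgeR threshold. Over all genes limma called only comm2, which is in none of these lists, and edgeR called 0, so this does not set the lists apart. In plasmatocyte receptors and markers, 10 of 31 tested genes were higher and 21 lower, with a median of -0.32 and with Col4a1 and vkg as the only DESeq2 calls. Over all genes 0.461% were lower by DESeq2. Without this pair, an alternative added after the values were seen, 10 of 29 genes were higher and 19 lower, with a median of -0.18. With all genes the median lay between -0.40 and -0.19 on omission of single libraries, and it was -0.19 without dsEGFP replicate 1, -0.21 without dsEGFP replicate 3 and -0.20 without dsUsh-B replicate 4. The hemocyte markers given above share Col4a1 and vkg with this list. The phagocytosis receptor gene eater varied mainly between replicates: it had 588.3, 451.8, 43.0 and 2.7 normalised counts in dsEGFP and 249.2, 91.2, 2.38 and 6.58 in dsUsh-B replicates 1 to 4. Replicates 3-4 were thus low in both groups, and the treatments overlapped (limma adjusted p = 0.893). In the IMD pathway 14 of 20 genes were higher and 6 lower, with a median of 0.08. Besides pirk, its gene PGRP-LF, a decoy receptor, had a log2 fold change of -0.69 without overlap and without a call (DESeq2 adjusted p = 0.192). The Toll pathway had 9 genes higher and 9 lower, with the protease gene grass at 1.00 and the receptor gene Toll (Tl) at -0.36, both with overlapping groups. The 7 antimicrobial peptide genes tested had a median of -0.39, with CecC at -0.58, but the median was 0.03 without dsEGFP replicate 1, 0.10 without dsUsh-B replicate 3 and -0.67 without dsUsh-B replicate 1. In the JAK/STAT pathway 4 of 12 genes were higher, led by its feedback inhibitor Socs36E, which had 8378.2 to 10797.2 normalised counts in dsEGFP and 12254.9 to 17606.0 in dsUsh-B libraries (0.50, DESeq2 adjusted p = 0.0756). The remaining hemocyte lists, crystal cell and lamellocyte markers, had no DESeq2 call.

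No gene of mitosis or DNA replication passed a test. Over all genes limma called 1, edgeR 0 and DESeq2 1.06%, so the absence of calls in lists of this size is near the overall share. Of 52 mitotic genes 13 were higher and 39 lower (median -0.05), and of 37 replication genes 1 was higher and 36 lower (median -0.16), with 0 DESeq2 calls in either list. The mitotic genes with the smallest p were aurB, an Aurora kinase (-0.23), and Det (-0.29), and among replication genes RfC4, a clamp loader subunit, had -0.25. The groups overlapped for each of these 3. Among all 52 mitotic genes, 1 had every dsUsh-B library below every dsEGFP library, and among the 37 replication genes 0 had, beside 1.79% of all genes tested. On omission of single libraries, the median of the replication genes lay between -0.25 and -0.05. That of the mitotic genes lay between -0.10 and 0.04 and turned positive without dsEGFP replicate 3. Of 30 genes of fatty acid oxidation 24 were higher and 6 lower (median 0.11), with Thiolase, the last enzyme of the cycle, at 0.33 without overlap and CG6543 at 0.35 with overlap. Of 17 genes of fatty acid synthesis 9 were higher and 8 lower (median 0.01). Heat shock and stress genes had a median of 0.42, with 14 of 19 higher, but ranged from -1.05 to 2.06 and included no call, and their median lay between -0.04, without dsUsh-B replicate 1, and 0.39 on omission of single libraries. Genes of the response to dsRNA had a median of 0.00 over 10 tested.

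**Figure D3:**
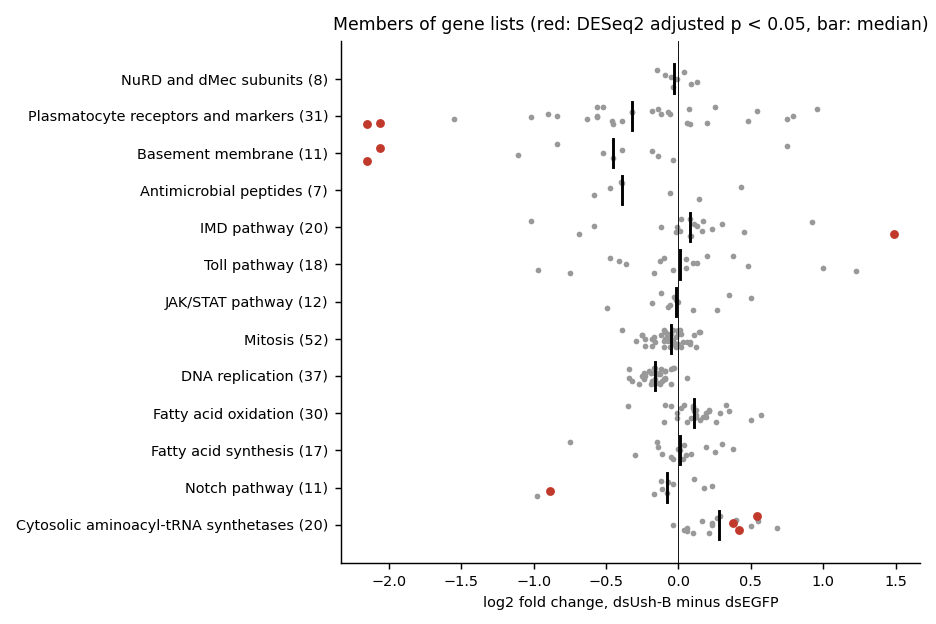
Log2 fold changes (dsUsh-B minus dsEGFP) of the tested members of 13 gene lists, with the number tested in brackets. Red points passed DESeq2, and bars are medians, which lie between -0.45 for the basement membrane and 0.28 for the aminoacyl-tRNA synthetases.

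The effect of dsUsh-B was next compared between replicates 1-2 and replicates 3-4, because the first principal component largely followed this line. All 9648 genes were tested for a difference of the effect between the 2 sets, and 0 passed (36 at an unadjusted p under 0.05 in limma and 38 in edgeR). These are fewer than an unadjusted p under 0.05 gives by chance. Each set held 2 libraries per group, so 0 calls do not show that the effect was equal. Between the sets themselves, with the treatment as a term, 183 genes (1.9%) passed in limma. The sets were read off the variation of these same libraries, which favours such calls, so this count is no independent evidence. For comm2 the log2 fold change was 2.90 in replicates 1-2 and 2.87 in replicates 3-4, for Col4a1 -1.68 and -2.61, for vkg -1.49 and -2.63, and for Pfdn5 -1.94 and -3.09. The last 3 were less lowered in replicates 1-2, which include dsUsh-B replicate 1. DESeq2 called 26 genes in replicates 1-2 alone and 31 in replicates 3-4 alone.

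**Figure D4:**
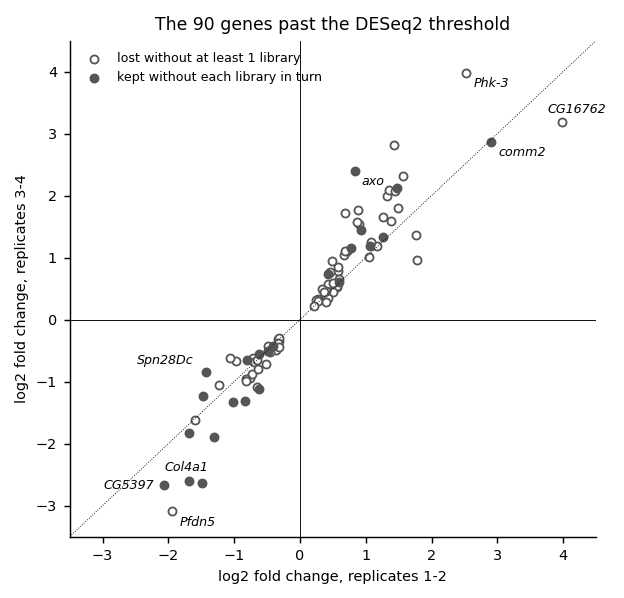
Log2 fold change in replicates 3-4 against that in replicates 1-2 for the 90 DESeq2 genes. All points lie in the upper right or lower left quadrant, which the choice of these genes on the same 8 libraries favours, and the filled points are the 24 genes that passed DESeq2 without each library in turn.

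The same genes were then looked up in cells depleted of all Ush isoforms or of dMi-2. These depletions had 3 libraries each and shared their dsEGFP controls with each other but not with dsUsh-B. In the limma fit of that table at an adjusted p under 0.01, 12.3% of 9132 genes were higher and 4.84% lower in dsUsh cells. Of the 51 genes higher in dsUsh-B cells by DESeq2, 29 (56.9%) were higher and 1 lower in dsUsh cells, and their median log2 fold change there was 1.24. Seen from the other side, these 29 were 2.58% of the genes higher in dsUsh cells. Of the 39 lower genes, 10 (25.6%) were lower and 1 higher in dsUsh cells, with a median of -0.18, and these 10 were 2.26% of the genes lower in dsUsh cells. In dsMi-2 cells, where 4.34% of genes were higher and 1.95% lower, 8 of the 51 were higher and 1 lower (median 0.20), and of the 39 lower genes 6 were higher and 2 lower (median 0.08).

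Most genes that were higher in both experiments had wider differences in dsUsh cells. comm2 had log2 fold changes of 2.88 in dsUsh-B, 5.54 in dsUsh and 2.16 in dsMi-2 cells, and CG16762 of 3.59, 9.26 and 1.68. pirk had 1.49, 2.17 and 1.96, GILT3 1.46, 4.15 and 1.71, and CG3246 1.80, 3.28 and 2.09. For Cyt-b5-r and Ugt36Bc the values were 1.72 and 1.56 in dsUsh-B and 8.56 and 9.66 in dsUsh cells. In control libraries of the other table CG16762 lay between 68.8 and 95.0 normalised counts. The tables were normalised apart and differ in depth, so this level cannot be set against the control values here. Other genes that were higher in dsUsh-B cells by DESeq2 did not pass in dsUsh cells. RpL18 had 1.19 against 0.16 in dsUsh cells, and CysRS, TyrRS, ThrRS and CD98hc lay between -0.23 and -0.03 in dsUsh cells, all with an adjusted p above 0.01 in limma. AsnS was higher in dsUsh-B (0.55) and lower in dsUsh cells (-0.68, limma adjusted p = 0.00656). No test was run across the tables.

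The 6 lower genes that were higher in dsMi-2 cells were Col4a1, vkg, Spn28Dc, Traf4, Tsp96F and ATP8B. Col4a1 had log2 fold changes of -2.15 in dsUsh-B, -2.28 in dsUsh and 2.20 in dsMi-2 cells (adjusted p = 0.00265, limma, for dsMi-2), and vkg of -2.06, -1.80 and 1.87. Spn28Dc (-1.14, -1.83 and 1.76), Traf4 (-0.87, -1.38 and 1.43) and the tetraspanin gene Tsp96F (-0.61, -3.02 and 2.66) had the same signs, and each passed the threshold of 0.01 in both depletions of the other table. ATP8B had -1.61, 0.64 and 4.25 and did not pass in dsUsh cells. kek1 (-1.17, -2.04 and 0.08) and N (-0.89, -2.32 and -0.77) were lower in dsUsh cells too and did not pass in dsMi-2 cells. IscU and Pfdn5 had 0.15 and -0.11 in dsUsh cells (adjusted p = 0.302 and 0.707, limma), beside -0.42 and -2.52 in dsUsh-B cells.

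**Figure D5:**
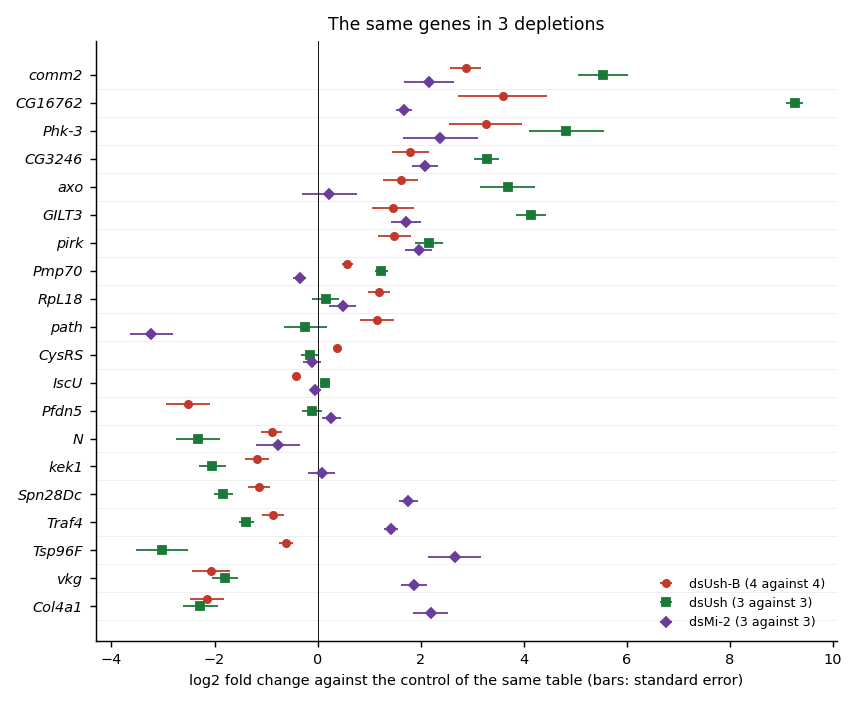
Log2 fold changes with standard errors of 20 genes in dsUsh-B (4 against 4 libraries), dsUsh and dsMi-2 cells (3 against 3 each, with a shared control). Col4a1, vkg, Spn28Dc, Traf4 and Tsp96F lie left of 0 in dsUsh-B and dsUsh and right of 0 in dsMi-2 cells.

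The 90 genes were spread over the genome and over the range of expression. The higher genes had a median of 2172 and the lower genes of 1019 normalised counts, where all genes tested had 1171. On the X chromosome lay 13.7% of the higher genes, 20.5% of the lower genes and 17.1% of all genes tested. In the Release 6 annotation 4 pairs of called genes were direct neighbours, and both genes of a pair differed in the same direction: vkg and Col4a1 on 2L, Tsp42Ed and Tsp42Ee on 2R, CG34034 and CG5849 on 3R were lower, and path and CG3408 on 3L were higher. How many pairs any 90 genes would hold was not worked out, so this count is not read as many or few. CG34034 and CG5849, of unknown function, had log2 fold changes of -1.07 and -1.60 and passed DESeq2 without each library in turn.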

How the data were processed

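RNA was isolated 4 days after transfection, and libraries were made with a stranded mRNA kit and sequenced as single reads. The authors aligned the reads with STAR, counted them per gene with featureCounts (version 1.6.2 in the submitters' processing notes) and divided the counts by DESeq2 size factors (version 2.11.40.2 in those notes) before they deposited the values. The deposited signal is thus a normalised count per gene. The notes name the builds dm3 and dm6 for all samples, and which was used for counting, the annotation and the use of strand are not given in the sources used here. The deposited tables of comparisons hold the authors' fold changes and p-values and were not used.

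Every value was a whole multiple of 1 step per library (whole for 100.0% of values, tolerance 0.05), which gave back the reads. Genes averaging 5 or more normalised counts were tested with limma 3.58.1 (R 4.3.3) on log2 of the value plus a pseudocount of 1, with moderation along the trend, two-sided, with Benjamini-Hochberg adjustment over all 9648 genes at 0.05. Fold changes are on this scale, which understates those of weakly expressed genes. edgeR 4.0.16 and DESeq2 1.42.0 were run on these recovered reads, and DESeq2 gave no adjusted p for 5830 genes with a read. The interaction of treatment with the sets of replicates 1-2 and 3-4 was fitted in limma. The other table, with 21366051 to 26101822 reads per library, was fitted in the same way at 0.01. Scripts were tested on simulated data. Precision is given by the spread over libraries, and counting error alone is small at this depth for all but the lowest genes.

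Genes were named by rule: ush, the NuRD and dMec subunits, the RT-qPCR panel, every gene past the threshold, genes past both edgeR and DESeq2 (0 were), and the 2 genes of smallest p of each list, of which only those of the lists described are given. Others were chosen after their values were seen. The members, lists and tests were chosen with earlier results of these data known. Names, neighbours and overlaps come from a Release 6 gene table, in which 17639 of 17737 names were found. Names that a spreadsheet had turned into dates were left as they are. Alternatives changed the pseudocount, filter, scaling, moderation, tool, threshold, block and libraries.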

Additional observations from a re-analysis of the deposited data

Results flagged for a closer look

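In 9 of 156 groups of 4 libraries (the 2 groups of each of the 78 genes listed for the text), 1 library lay apart from the other 3 on the log2 scale by more than Dixon's 95% limit, and chance alone gives about 1 in 20. In ush, dsEGFP replicate 4 had 6410.9 normalised counts, where the other controls had 9579.9 to 10368.9. dsUsh-B replicate 1 was the least changed library of its group in Col4a1 (496.4, others 296.1 to 315.9), vkg (495.3, others 234.3 to 251.1), Pfdn5 (1812.2, others 405.3 to 476.5) and GILT3 (103.5, others 292.2 to 358.0). In Tsp42Ed, dsUsh-B replicate 2 was lower (140.2) than the other 3 (365.8 to 372.8). dsUsh-B replicate 3 was higher in CG1077 (69.0, others 32.7 to 36.7) and in eIF3d1 (33503.8, others 29727.7 to 30155.4). In Ugt36Bc, dsEGFP replicate 2 had 12.9 normalised counts and the other controls 33.6 to 36.0.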

How the results depend on the processing

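The number of genes past the threshold was 1 in limma, and it was also 1 with a pseudocount of 5, without a filter, with quantile normalisation and at an adjusted p under 0.1. It was 0 with a pseudocount of 0.5, a minimum mean of 50, TMM factors, upper-quartile scaling, moderation without trend, edgeR, the term for replicates 1-2 against 3-4 in limma or edgeR, replicates 1-2 or 3-4 alone, or a threshold of 0.01. DESeq2 called 90 (51 higher, 39 lower). On omission of single libraries the limma count lay between 0 and 4, with 0 to 4 higher and 0 to 1 lower. The DESeq2 fits below were chosen after seeing the data. Their count lay between 26 and 294 on omission of single libraries (9 to 174 higher, 17 to 120 lower). It was 26 in replicates 1-2 (11 higher, 15 lower) and 31 in replicates 3-4 (23 higher, 8 lower). With the term for replicates 1-2 against 3-4 it was 114. The adjusted p of comm2 ranged from 0.0176 to 0.999 over the limma and edgeR alternatives, and its log2 fold change from 2.69 to 3.09.

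With the replicate number as a block, limma called 0 genes, edgeR called 0 and DESeq2 called 166 (90 higher, 76 lower). The numbers do not mark pairs throughout: deviations from the group means of same-numbered libraries correlated at -0.049 to 0.66, and 4 of the 8 libraries correlated best with their own number (r = 0.557 for replicates 1 and 0.66 for replicates 2). The others correlated best across numbers, dsEGFP replicate 4 with dsUsh-B replicate 3 (0.762) and dsEGFP replicate 3 with dsUsh-B replicate 4 (0.516). No label names such pairs and none was fitted. The log2 fold change of ush was 0.0095 without dsUsh-B replicate 3 and lay between -0.26 and 0.0095 on omission of single libraries. That of Mi-2 was -0.00037 with quantile normalisation, -0.08 without dsEGFP replicate 4 and -0.05 without dsUsh-B replicate 4, against 0.04 with all libraries and up to 0.19 on omission of others. No other gene in the text changed direction under these alternatives. The cause of these dependences was not tested. Depth limits the scarce genes, such as Cyt-b5-r, Sid and CG1077, which had under 20 normalised counts in each control library.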
